A study of Mus musculus with 2 samples.

Results

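The genes described here encode the proteins of the cytosolic ribosome, in splenic CD8 T cells of old and young origin from the same kind of aged host. Members were all symbols in the features files that began with Rpl or Rps followed by a digit, by p and a digit, or by a, leaving out the Rps6k kinases. The rule took 95 of 31017 symbols. Of these, 77 were the standard ribosomal proteins (46 of the large subunit and 31 of the small subunit), 9 carried pseudogene names, 7 were paralogs, 1 was the retrogene Rps27rt, and 1, Rps19bp1, matches by name but encodes a protein that binds Rps19. Fau, which encodes a ribosomal protein fused to a ubiquitin-like protein, and the ribosome-bound scaffold Rack1 are among the genes that lie outside the rule.

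The study moved total CD8 T cells of CD45.1 C57BL/6J mice aged 3 months into CD45.2 C57BL/6J mice aged 24 months, and both strains were wild type (wt). After 1 month, viable CD3e+CD8a+ cells were sorted from spleen by their CD45 allele. The CD45.2+ cells, native to the aged host, are called old recipient, and the CD45.1+ cells, which had spent that month in the aged host, are called young donor; both groups are labelled as from a mouse 25 months old. Each group was 1 droplet 5′ library, and only young donor cells had been transferred. Library, age of origin, CD45 allele and the transfer itself therefore cannot be told apart. No difference below was tested, and every interval is a 95% interval for counting error alone. The labels do not say whether a library came from 1 mouse or from a pool, or whether both came from the same mouse.

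Ribosomal proteins are made in near-equal numbers per ribosome, and their messenger RNAs are among the most abundant in lymphocytes. Many begin with a C followed by a run of C and T bases, the terminal oligopyrimidine (TOP) motif, through which mTORC1 and the RNA-binding protein Larp1 control their translation and stability together. Naive T cells are small and quiescent, and ribosome production rises when they are activated. These libraries count RNA molecules by their 5′ end, not protein and not translation.

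The windows around the transcription start are shown for 6 members with long or short C and T runs. All but Rpl27a stood apart from the rest in Gzmk cells, as described below. No promoter was matched for Rps20, the lowest member in those cells, so its window is not shown. Each line gives 30 bases before the RefSeq start and 20 bases from it (GRCm38.p6, 5′ to 3′ on the strand of the gene), with the longest run of C and T in capitals.
Rpl27a: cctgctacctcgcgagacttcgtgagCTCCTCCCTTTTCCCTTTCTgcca
Rpl35: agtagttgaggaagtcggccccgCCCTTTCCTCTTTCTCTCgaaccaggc
Rpl13a: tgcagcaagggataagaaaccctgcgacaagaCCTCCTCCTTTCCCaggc
Rpl36a: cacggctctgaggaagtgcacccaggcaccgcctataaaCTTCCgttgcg
Rpl27: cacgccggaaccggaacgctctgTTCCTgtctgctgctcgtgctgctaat
Rpl36al: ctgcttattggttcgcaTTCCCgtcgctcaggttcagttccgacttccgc

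These lie at chr7:109519165-109519214 (plus strand) for Rpl27a, chr2:39005112-39005161 (minus) for Rpl35 and chr7:45128726-45128775 (minus) for Rpl13a. Those of Rpl36a, Rpl27 and Rpl36al lie at chrX:134585624-134585673 (plus), chr11:101442215-101442264 (plus) and chr12:69184048-69184097 (minus). The longest runs were 20, 18 and 14 bases in the first 3 windows and 5 bases in each of the others. RefSeq promoters were matched for 66 of the 95 members, 57 of them standard proteins. A run of at least 8 bases that were all C or T, read on the gene's own strand, lay in the window of 29 of these 57 genes (50.9%), against 22.9% of all symbols with a promoter. A C at the start base followed by at least 4 bases of C or T was found for 22.8% of the 57 and for 3.01% of all symbols. RefSeq starts can lie some bases away from the start used in T cells, so a missing match says only that the letters are not in this window.

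The libraries held 6174 (old recipient) and 8588 (young donor) barcodes with 41504941 and 65006187 UMIs, and 105 barcodes occurred in both. After filters and removal of doublets, 5341 and 7451 cells remained, with medians of 6896 and 7793 UMIs per cell. Kept cells carried CD8 T cell markers (Cd3e, Cd3d, Cd3g, Cd8a, Cd8b1 and Trac), whose sum lay between 4579 and 6104 CPM in every class of cells below (CPM, the UMIs of a gene summed over cells and scaled to 1000000 UMIs of all genes). The B-cell-defining Ms4a1 and Cd79a lay between 0 and 0.55 CPM in each class. With Ighm and Cd79b added, the B cell markers summed to between 63.1 and 235 CPM over the classes, highest in naive-type cells.

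Ribosomal protein genes made up 40.2% of all UMIs in old recipient cells and 41.3% in young donor cells. Of the 95 members, 4 had no UMI in either library (Rpl3l, Rpl10l, Rpl9-ps1 and Rpl36-ps4), another 4 had under 200 UMIs over both, and 87 were compared. The 5′ method counts 1 transcript end per molecule, so levels are not divided by gene length. Standard proteins spanned a 17.3-fold range of level in old recipient and a 17.7-fold range in young donor cells, although the ribosome holds their products in near-equal numbers. Rps24 was highest, at 12902 and 13414 CPM. It was followed by Rpl13, Rps15a, Rplp1 (a stalk protein that recruits elongation factors), Rps27, Rps16, Rpsa, Rps20, Rpl23 and Rplp0 (the base of that stalk). These 10 genes took 23.6% and 24.2% of the ribosomal UMIs. Among the lowest standard proteins as counted were Rpl31 (763 and 756 CPM) and Rpl10 (745 and 833 CPM). Rpl10 sets the low end of the old recipient range. Of the UMIs of Rpl10 and its copy Rpl10-ps3, however, 80.3% and 78.8% were assigned to the copy, so this rank of Rpl10 is uncertain. The order of Rpl31 and Rpl10 was not the same in both libraries.

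Some levels depend on how reads of near-identical copies were assigned, a step that is not given in the sources used here. The pseudogene-named Rpl9-ps6 was listed at 5195 and 5280 CPM, above its parent Rpl9 at 1157 and 1276 CPM. Likewise Rpl10-ps3 was at 3045 and 3106 CPM, above the 745 and 833 CPM of Rpl10. The split between each copy and its parent is therefore uncertain. Pseudogene-named members together held 2.11% of ribosomal UMIs in each library. Paralogs with their own products were lower than their partners: Rpl22l1 was at 1141 and 1094 CPM beside 2736 and 2964 for Rpl22, and Rps27l at 126 and 118 CPM beside 10032 and 9354 for Rps27. The members lie on 20 chromosomes, and 4 are on X.

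Ribosomal protein genes took a much smaller part of the RNA in effector-type than in naive-type cells, in both libraries. Cells were classed by UMIs of 4 genes that are not members. Naive-type cells had at most 3 UMIs of the chemokine gene Ccl5 and 0 of Ly6c2, which encodes a surface protein of memory CD8 T cells. Ly6c2-high cells had at least 2 UMIs of Ly6c2, Gzmk cells at least 2 of the granzyme gene Gzmk, and Cx3cr1 cells at least 1 of the fractalkine receptor gene Cx3cr1. These are ranges of raw counts and not cell types, and a cell read more deeply passes a minimum more easily. Naive markers (Ccr7, Lef1, Tcf7, Igfbp4 and Dapl1) summed to 2028 and 2120 CPM in naive-type cells and to 1321 and 1114 in Ly6c2-high cells. In Gzmk and Cx3cr1 cells they summed to between 365 and 394 CPM.

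In old recipient cells the pooled ribosomal share was 42.9% of UMIs in 1545 naive-type cells, 42.0% in 2270 Ly6c2-high cells, 28.2% in 1107 Gzmk cells and 25.8% in 372 Cx3cr1 cells. In young donor cells it was 43.4% in 801 naive-type, 42.4% in 5146 Ly6c2-high, 30.1% in 1172 Gzmk and 28.1% in 316 Cx3cr1 cells. The order of the classes was the same in both libraries, with a wide step between Ly6c2-high and Gzmk cells. The Gzmk minus naive-type difference was -14.7 percentage points in old recipient (log2 ratio of shares -0.60, interval -0.61 to -0.60). In young donor it was -13.3 points (-0.53, interval -0.53 to -0.52). The Cx3cr1 minus naive-type difference was -17.2 points (-0.74, interval -0.74 to -0.73) and -15.3 points (-0.63, interval -0.63 to -0.62). Taken against the UMIs of other nuclear genes, in place of all UMIs, the log2 ratios of Gzmk cells were -0.96 and -0.86.

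**Figure D1:**
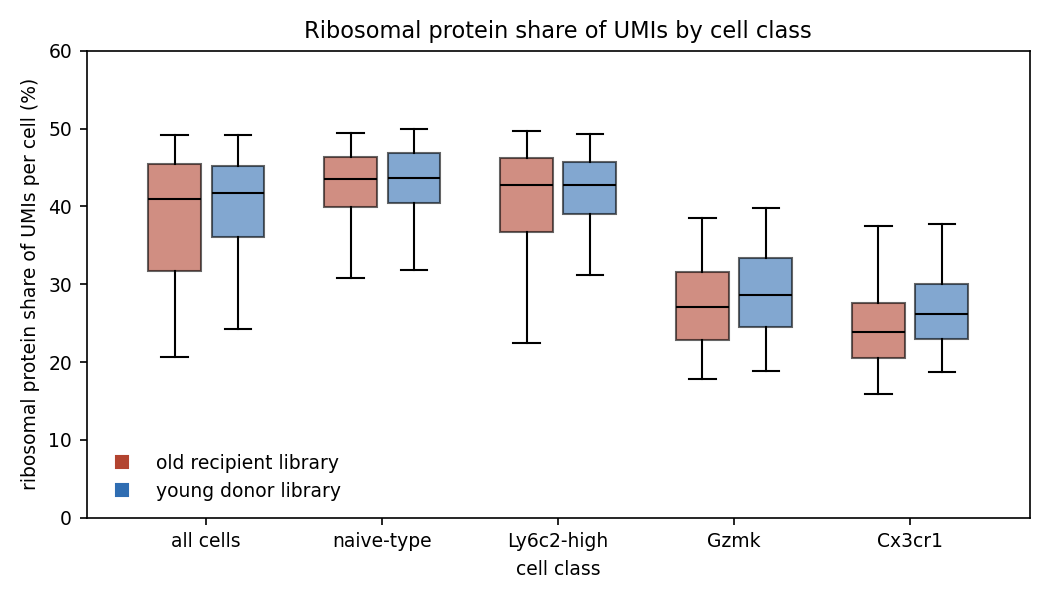
Ribosomal protein share of UMIs per cell (y axis, percent) by cell class (x axis) in the old recipient and young donor libraries. Boxes span the quartiles with a line at the median, and whiskers run from the 5th to the 95th percentile of cells; Gzmk and Cx3cr1 boxes lie below the naive-type boxes in both libraries.

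Single cells of each class varied far more than counting alone gives, and the classes overlapped. The median cell held 43.6% (quartiles 39.9 and 46.3) in old recipient naive-type cells and 27.1% (22.8 and 31.6) in Gzmk cells. In young donor cells the medians were 43.7% (40.4 and 46.9) and 28.6% (24.5 and 33.4). The SD between cells was 6.41 percentage points in old recipient naive-type cells, of which counting alone would give 0.618. A share under 35% was found in 10.6% and 8.99% of naive-type cells, in 87.4% and 80.8% of Gzmk cells and in 92.7% and 90.2% of Cx3cr1 cells. The small subunit's part of ribosomal UMIs was 47.8% in naive-type, 47.6% in Ly6c2-high, 46.8% in Gzmk and 46.4% in Cx3cr1 cells of old recipient. In young donor it was 48.1%, 47.7%, 47.2% and 46.6%, slightly lower in the same order of classes.

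The lower share went with a large shortfall of ribosomal UMIs per cell, beside a smaller one of other UMIs. The median Gzmk cell had 1245 ribosomal UMIs in old recipient and 1298 in young donor, or 41.0% and 40.4% of the median naive-type cell. Its UMIs of other genes were 84.3% and 77.2% of those of the naive-type cell. For Cx3cr1 cells the ribosomal UMIs were 33.0% and 35.5%, and the others 80.6% and 76.6%. Fewer molecules per cell and poorer capture from such cells cannot be told apart in these counts. The median mitochondrial share was 2.92% and 2.99% in naive-type and 2.42% and 2.44% in Gzmk cells.

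**Figure D2:**
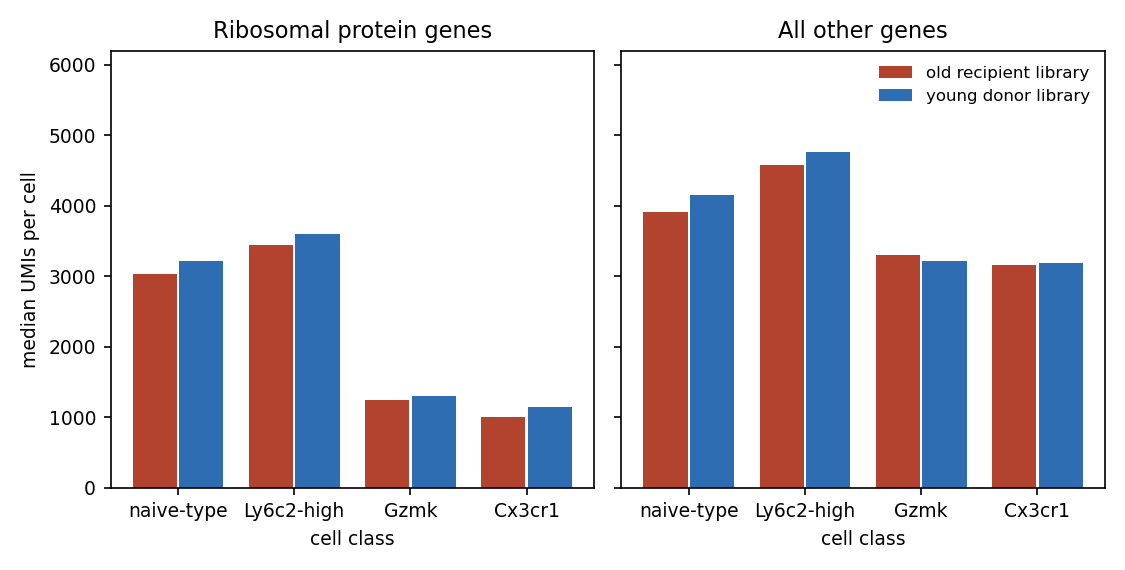
Median UMIs per cell (y axis) of ribosomal protein genes (left) and of all other genes (right) for each class, in old recipient and young donor cells. Bars start at 0; ribosomal UMIs in Gzmk and Cx3cr1 cells stand between 1003 and 1298, against 3038 and 3211 in naive-type cells.

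Depth moved with the share. Across all kept cells the share and the total UMIs of a cell had a Spearman rho of 0.60 (old recipient, 5341 cells) and 0.55 (young donor, 7451 cells). This is a description only, since a cell's ribosomal UMIs are part of its total. With the UMIs of other genes rho was 0.36 and 0.31 over all cells. Within classes it was 0.09 and 0.08 in naive-type and 0.12 and 0.24 in Gzmk cells. Gzmk cells were shallower, with medians of 4612 and 4557 UMIs against 6989 and 7427 in naive-type cells. In cells of 5000 to 7000 UMIs, a range chosen after the data were seen, the median share of old recipient cells was 43.1% in 539 naive-type, 38.4% in 451 Ly6c2-high, 29.0% in 291 Gzmk and 26.7% in 64 Cx3cr1 cells. Of young donor cells it was 42.5% in 249 naive-type, 40.0% in 889 Ly6c2-high, 32.0% in 312 Gzmk and 27.4% in 66 Cx3cr1 cells. Pooled log2 ratios over naive-type cells in this range were -0.54 and -0.40 for Gzmk and -0.65 and -0.56 for Cx3cr1 cells. The range did not make the classes equal in depth: the median total was 6127 and 6173 UMIs in naive-type and 5488 and 5660 in Gzmk cells, and the median UMIs of other genes 3492 and 3503 against 3951 and 3880. The part of depth in the difference was not tested. Ly6c2-high cells under 3500 UMIs differed most between libraries, with a median of 21.8% in 130 old recipient and 31.5% in 112 young donor cells.

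**Figure D3:**
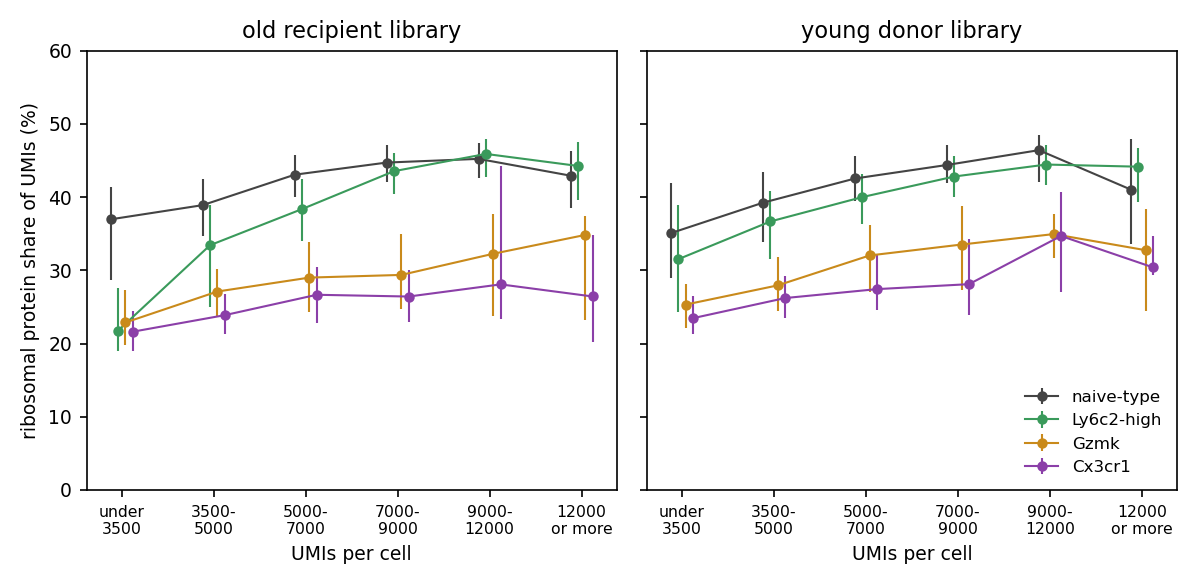
Median ribosomal protein share (y axis, percent of UMIs) in 6 ranges of UMIs per cell (x axis), for the 4 classes in each library. Points are medians and bars quartiles; at 5000 to 7000 UMIs Gzmk cells stand at 29.0% and 32.0%, below naive-type cells at 43.1% and 42.5%.

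Markers of dividing cells moved with the classes as well. The 4 cycling markers (Mki67, Top2a, Birc5 and Ccnb1) summed to 15.5 and 8.13 CPM in naive-type, 122 and 71.9 CPM in Gzmk and 170 and 99.2 CPM in Cx3cr1 cells, and none of the 4 was at 0 in any class. The 5 myeloid markers summed to 93.6 and 84.9 CPM in naive-type and to between 144 and 160 CPM in Gzmk and Cx3cr1 cells, with most of each sum from Cst3. The phagocyte gene Cd68 was at 1.75 and 2.37 CPM in naive-type, 23.8 and 25.8 CPM in Gzmk and 9.31 and 26.3 CPM in Cx3cr1 cells. Lyz2 was at 0.092 and 0.51 CPM in naive-type, 0.34 and 6.54 CPM in Gzmk and 0 and 1.84 CPM in Cx3cr1 cells. Csf1r lay between 0 and 0.67 CPM in every class, with 0 in old recipient Gzmk and Cx3cr1 cells, and Itgam between 0 and 1.10 CPM, with 0 in old recipient naive-type and young donor Cx3cr1 cells. The 4 B cell markers (Cd79a, Cd79b, Ms4a1 and Ighm) summed to 235 and 206 CPM in naive-type and to between 63.1 and 75.6 CPM in Gzmk and Cx3cr1 cells, almost all from Ighm and Cd79b. The part of these cells in the ribosomal share was not tested.

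Within the Gzmk class the share was lower where more Gzmk was counted. It was 30.9% in 135 old recipient cells with 2 UMIs of Gzmk, 29.1% in 449 cells with 3 to 5, and 27.1% in 523 cells with 6 or more. In young donor cells the same ranges gave 31.7%, 31.0% and 28.6%. Cells that were both Ly6c2-high and Gzmk held 32.9% (135 cells) and 33.7% (141 cells), between the 2 classes. Cells with both Gzmk and Cx3cr1 held 25.1% (224 cells) and 27.7% (208 cells).

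Nearly all ribosomal protein genes were lower in Gzmk than in naive-type cells. A gene was counted as lower or higher where its CPM differed by at least 1.2-fold and the summed cells held at least 200 UMIs. In old recipient cells 80 of 87 members were lower and 0 higher, against 11.9% of all 6307 genes lower and 54.2% higher. In young donor cells 79 were lower and 1 higher, against 10.2% and 55.1% of 5268 genes. The median log2 ratio of the members was -0.58 and -0.51, and that of all genes 0.30 and 0.31. Because ribosomal genes hold so much of the total, their lower share raises the CPM of all others. Taken per UMI of genes other than the members, the log2 ratios shift by -0.33 and -0.30. TMM scaling, which by its method brings most genes near 0, shifts the ratios by -0.31 and -0.29. With it the median of all genes was -0.01 and 0.02. On that scale 26.9% of genes were lower and 23.9% higher in old recipient, and 23.3% lower and 24.8% higher in young donor, while 84 members were lower and 0 higher in each.

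In Cx3cr1 cells 80 members were lower and 2 higher in old recipient (12.8% and 55.8% of 5304 genes), and 80 lower and 1 higher in young donor (12.3% and 55.7% of 3726 genes). The median log2 ratio was -0.70 and -0.58, and 85 and 86 members were lower with TMM scaling, against 32.8% and 29.6% of all genes on that scale. Most of the 87 members kept to a narrow band. In Gzmk cells the quartiles of the members were -0.72 and -0.47 in old recipient and -0.64 and -0.38 in young donor. The ratios of the 87 members in one library followed those in the other, with a Pearson r of 0.98 for Gzmk and 0.97 for Cx3cr1 cells. This r is across genes, which are not independent replicates, and the members share their cells and naive-type denominators within a library.

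**Figure D4:**
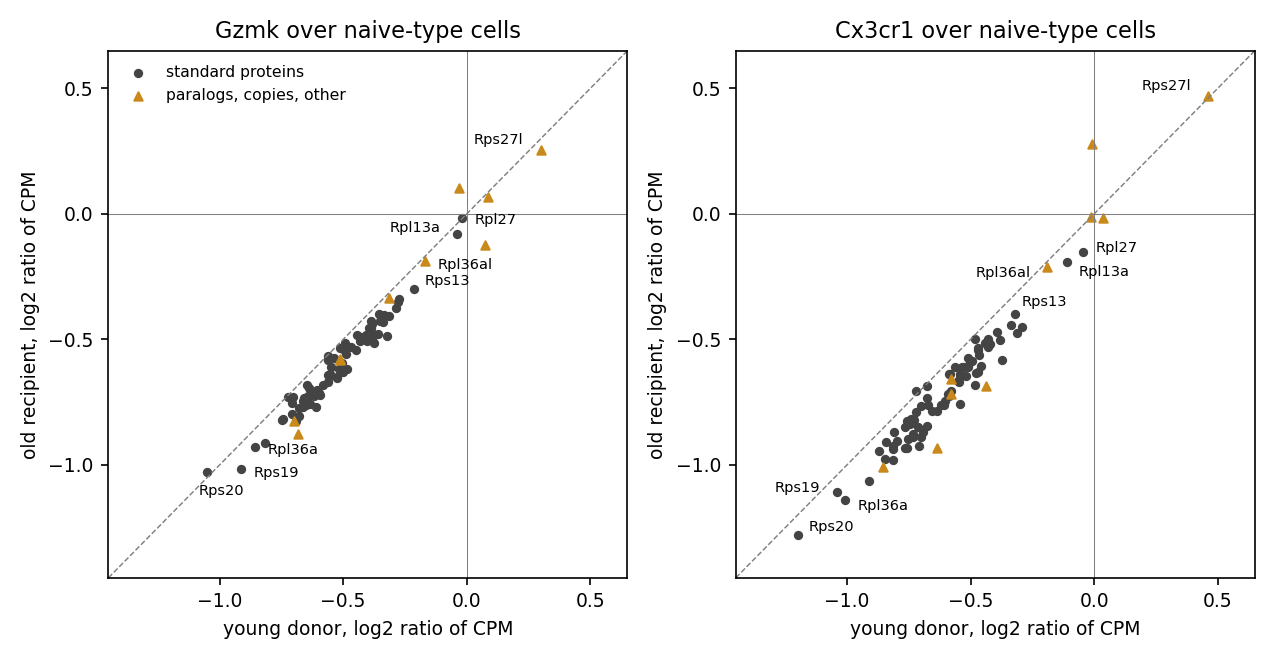
Log2 ratio of CPM over naive-type cells for the 87 members, in young donor (x axis) and old recipient cells (y axis), for Gzmk (left) and Cx3cr1 cells (right). Circles are standard proteins, triangles paralogs, copies and Rps19bp1, and the dashed line marks equal ratios; Rps20 lies at the low end and Rps27l at the high end in both panels.

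Of the 87 members, 12 lay more than 1.2-fold from the members' median in Gzmk cells of both libraries. Those below it were all standard proteins, namely Rps20, Rps19, Rpl36a and Rpl35. Rps20, of the head of the small subunit, was at 9704 CPM in naive-type, 4753 in Gzmk and 3998 in Cx3cr1 cells of old recipient. In young donor it was at 10394, 5022 and 4532 CPM. Its log2 ratio in Gzmk cells was -1.03 (interval -1.05 to -1.01) and -1.05 (-1.07 to -1.03), the lowest of the 87 members in both libraries. Rps20 was the lowest in Cx3cr1 cells too, at -1.28 and -1.20. The 2 classes are not separate, since 224 of 372 and 208 of 316 Cx3cr1 cells were also Gzmk cells. Both are also set against the same naive-type cells.

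Rps19, whose loss of function causes Diamond-Blackfan anaemia in people, was at 7138 CPM in naive-type, 3527 in Gzmk and 3313 in Cx3cr1 cells of old recipient. In young donor it was at 7298, 3876 and 3545 CPM. Its ratio in Gzmk cells was -1.02 (-1.04 to -0.99) and -0.91 (-0.94 to -0.89). Rpl36a, of the large subunit, went from 3508 to 1841 CPM and from 3604 to 1991 CPM between naive-type and Gzmk cells, ratios of -0.93 and -0.86. Rpl35, beside the exit of the nascent chain, went from 5666 to 3006 and from 5460 to 3099 CPM, ratios of -0.91 and -0.82. All 4 were among the lowest 6 in each of the Gzmk and Cx3cr1 comparisons, in both libraries. The gene of Rpl35 overlaps Arpc5l and Wdr38 on the opposite strand in GENCODE M21.

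Above the band, 2 standard proteins of the large subunit stayed near their naive-type level. Rpl27 was at 3028 CPM in naive-type, 2996 in Gzmk and 2724 in Cx3cr1 cells of old recipient. In young donor it was at 3098, 3056 and 3004 CPM. Its Gzmk ratios of -0.02 (-0.04 to 0.01) and -0.02 (-0.05 to 0.01) had intervals that held 0. Rpl13a, also known as part of a complex that silences translation after interferon gamma, was at 4394, 4158 and 3852 CPM in old recipient and at 4196, 4081 and 3885 CPM in young donor. Its Gzmk ratios were -0.08 (-0.10 to -0.06) and -0.04 (-0.07 to -0.01). The gene of Rpl13a overlaps Gm45713 on the same strand. Rps13 came next, with -0.30 and -0.21. With TMM scaling Rpl27 was at -0.33 and -0.31 in Gzmk cells, still above the members' medians of -0.89 and -0.80 on that scale.

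The other members above the band were not standard proteins. Rps27l, a paralog of Rps27 known as a target of p53, was at 116 CPM in naive-type, 139 in Gzmk and 161 in Cx3cr1 cells of old recipient. In young donor it was at 101, 124 and 139 CPM. Its ratio was 0.26 (0.13 to 0.38) and 0.30 (0.14 to 0.46) in Gzmk and 0.47 (0.28 to 0.65) and 0.46 (0.23 to 0.68) in Cx3cr1 cells. With TMM scaling these were -0.06 and 0.01 in Gzmk and 0.07 and 0.10 in Cx3cr1 cells, so the sign in old recipient Gzmk cells depends on the scaling. Its partner Rps27 had -0.35 and -0.28 in Gzmk cells.

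Rpl36al, a retrocopy-derived paralog of Rpl36a that makes an almost identical protein, had ratios of -0.19 and -0.17 in Gzmk cells, where Rpl36a had -0.93 and -0.86. Rpl36al thereby held 25.4% and 25.3% of the pair's UMIs in naive-type, 36.3% and 35.2% in Gzmk and 39.3% and 37.3% in Cx3cr1 cells. Sequence shared by the pair could move UMIs between them, and the gene of Rpl36al overlaps Gm49383 on the same strand. No such difference was seen for Rpl22 and Rpl22l1, which are both RNA-binding proteins of the large subunit: Rpl22l1 held 30.3% and 29.1% of that pair in naive-type and 29.4% and 27.2% in Gzmk cells. Other paralogs did hold a larger part in Gzmk cells. Rps27l held 1.10% and 1.00% of its pair with Rps27 in naive-type and 1.66% and 1.49% in Gzmk cells. For Rpl7l1 beside Rpl7 the parts were 1.55% and 1.46%, then 2.19% and 2.15%. Rpl7l1, Rps19bp1 and Rpl27-ps3, at 30 to 50 CPM, had intervals that held 0 in Gzmk cells of both libraries. Rpl10-ps3 was also below the band in Cx3cr1 cells, at -1.01 and -0.85, while its sum with Rpl10 was at -0.97 and -0.83.

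Members below and above the band were found both with long and with short C and T runs. The 29 standard genes with a run of at least 8 bases had a median Gzmk ratio of -0.58 in old recipient and -0.56 in young donor, and the 28 without one -0.60 and -0.50. In Cx3cr1 cells the medians were -0.76 and -0.68 with a run and -0.70 and -0.60 without. In Ly6c2-high cells they were -0.036 and -0.037 with a run and -0.013 and -0.006 without. The windows include bases before the start, and genes with a C at the start base were not compared, so a link to the TOP motif was not tested. Rpl27a, with a run of 20 bases, had -0.51 and -0.49, close to the members' medians. Rpl35 (18 bases) was below the band and Rpl13a (14 bases) above it. Of the members with 5-base runs, Rpl36a was below it, and Rpl27 and Rpl36al above it.

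Other genes of the translation machinery were split. Of the ribosomal genes outside the rule, Rack1 had -0.56 and -0.47 in Gzmk cells, past 1.2-fold in both libraries, and Fau -0.15 and -0.14. Of 6 elongation factors 5 were lower in old recipient and 3 in young donor, with none higher. For this list and the next, 11.9% and 10.2% of all genes were lower and 54.2% and 55.1% higher. The elongation factors had medians of -0.39 and -0.32 (-0.70 and -0.61 with TMM scaling), and Eef1b2, an exchange factor for eEF1A, had -0.95 and -0.84. Of 6 other measured genes known for a TOP motif 4 were lower in each library, with medians of -0.43 and -0.40 (-0.75 and -0.69 with TMM scaling). Npm1, a nucleolar chaperone of ribosome assembly, had -0.87 and -0.75, and the poly(A)-binding protein gene Pabpc1 0.07 and 0.16 (-0.24 and -0.13 with TMM scaling).

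Ribosome biogenesis genes were lower for 15 of 27 measured in old recipient and 12 of 25 in young donor, with 2 and 1 higher. Of all genes 11.9% and 10.2% were lower and 54.2% and 55.1% higher. The biogenesis medians were -0.50 and -0.20 (-0.82 and -0.49 with TMM scaling). Initiation factors had medians of 0.03 and 0.04 (-0.28 and -0.24 with TMM scaling), with 5 and 7 of 29 higher and 4 and 3 lower. For this and the following lists the shares of all genes are again 54.2% and 55.1% higher and 11.9% and 10.2% lower. Mitochondrial ribosomal protein genes, whose products make a separate ribosome, had medians of 0.15 in each (-0.16 and -0.13 with TMM scaling), with 23 of 75 and 16 of 72 higher and 9 and 9 lower; both lists thus had fewer higher genes than the background. Growth regulators had medians of 0.31 and 0.32 (-0.01 and 0.03 with TMM scaling), with 6 of 11 and 5 of 9 higher and 3 and 1 lower, and the higher counts are near the background. Among them Myc, which drives ribosome production, was at 98.8 CPM in naive-type and 34.9 in Gzmk cells of old recipient and at 103 and 46.3 CPM in young donor, ratios with intervals of -1.73 to -1.29 and of -1.36 to -0.94.

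Ly6c2-high cells were close to naive-type cells in the ribosomal share and in nearly every member. The log2 ratio of shares was -0.031 in old recipient and -0.033 in young donor. The old recipient value became 0.00043 without the cells that met more than 1 class rule, and at 5000 to 7000 UMIs the values were -0.15 and -0.10. No member was 1.2-fold higher or lower in either library. Of all genes, 14.1% were higher and 8.88% lower of 7588 in old recipient, and 20% and 11.4% of 8576 in young donor. All genes include those near the minimum of UMIs, where counting error is largest, while most members had far more UMIs. Genes of like level were not compared, so the low member counts do not show that ribosomal genes are steadier than others. At 5000 to 7000 UMIs 11 members were lower and 0 higher in old recipient, against 9.58% and 21.6% of 3152 genes. In young donor 3 were lower and 1 higher, against 10.3% and 23.3% of 3628 genes. The highest standard member in old recipient was Rps12, at 4331 CPM in naive-type and 5059 in Ly6c2-high cells (0.22, interval 0.21 to 0.24), with 4995 and 5734 CPM in young donor (0.20, 0.18 to 0.22). Rpl29 had 0.12 and 0.23. The lowest were Rps3a1, at -0.18 and -0.22, and Rpl10-ps3, at -0.16 and -0.23. Among Ly6c2-high cells outside the Gzmk and Cx3cr1 classes, those with at most 3 UMIs of Ccl5 held 44.4% (869 cells) and 44.1% (1163 cells). Those with more Ccl5 held 41.8% (1164 cells) and 42.3% (3793 cells).

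Between the libraries, old recipient cells had a slightly lower ribosomal share than young donor cells, a difference of -1.02 percentage points (log2 ratio -0.036, interval -0.037 to -0.035). The make-up of the libraries differed: naive-type cells were 28.9% of old recipient and 10.8% of young donor cells, and Ly6c2-high cells 42.5% and 69.1%. Gzmk cells were 20.7% and 15.7%, and Cx3cr1 cells 6.96% and 4.24%. Within classes the log2 ratio was -0.016 in naive-type, -0.014 in Ly6c2-high, -0.09 in Gzmk and -0.12 in Cx3cr1 cells. The gap was widest in the 2 classes of low share, at -1.88 and -2.32 percentage points. Without cells that met more than 1 rule the Cx3cr1 value was -0.04, over 45 and 59 cells, and that of Ly6c2-high cells 0.0078. At 5000 to 7000 UMIs the value over all cells was -0.0098, that of naive-type cells 0.00062 and that of Gzmk cells -0.14.

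Few members differed between the libraries by 1.2-fold, but the shares of all genes given beside them again include genes near the minimum of UMIs. Over all cells 0 of 87 were higher in old recipient and 3 lower, against 8.38% and 5.6% of 9541 genes. The 3 were Rps12, its copy Rps12-ps3 and Rpl27-ps3. Rps12, of the small subunit, was at 4484 CPM in old recipient and 5389 in young donor cells (-0.27, interval -0.27 to -0.26). Rps12-ps3 was at 202 and 266 CPM (-0.40, -0.44 to -0.36) and held 4.31% and 4.70% of the UMIs of the pair. Rpl27-ps3 was at 35.01 and 46.5 CPM (-0.41, -0.51 to -0.32), where its parent Rpl27 had -0.08. Next came Rpl5, which with Rpl11 binds the p53 regulator Mdm2, at 1999 and 2347 CPM (-0.23), and the stalk protein gene Rplp2, at 4138 and 4773 CPM (-0.21).

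At the other end were members of both subunits. Rpl21 was at 2952 CPM in old recipient and 2500 in young donor cells (0.24, interval 0.23 to 0.25), and Rps29 at 8082 and 6865 CPM (0.24, 0.23 to 0.24). Rpl35a followed with 0.22, Rps28 with 0.20, Rpl17 with 0.19 and Rpl38, known for its role in translation of Hox messages, with 0.13. Each kept its side within all 4 classes: Rpl21 ranged from 0.15 to 0.27, Rps29 from 0.13 to 0.26 and Rpl35a from 0.16 to 0.23. On the low side Rps12 ranged from -0.26 to -0.18, Rpl5 from -0.32 to -0.19 and Rplp2 from -0.31 to -0.16. None of these 12 members at the ends changed sign with TMM scaling, over all cells, which shifted the ratios by -0.05. The classes are parts of the same 2 libraries and are not replicates of this difference.

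**Figure D5:**
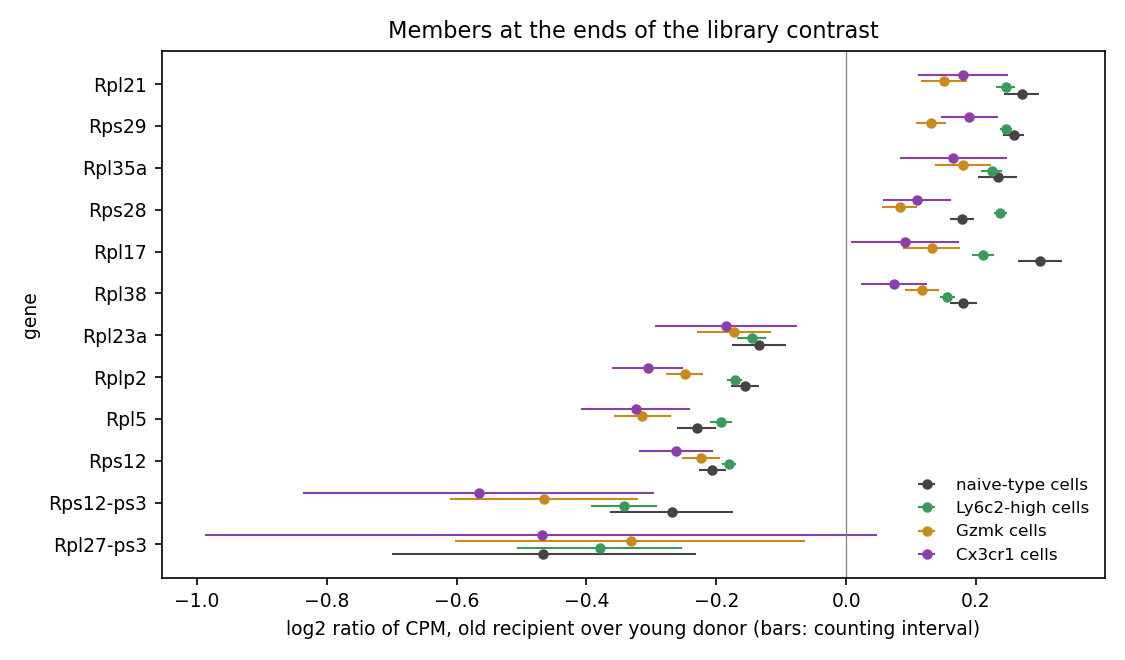
Log2 ratio of CPM, old recipient over young donor (x axis), for the 6 highest and 6 lowest members of the library comparison (y axis) in each of the 4 classes. Points are ratios and bars 95% counting intervals; Rpl21 and Rps29 stand right of 0 and Rps12 and Rpl5 left of 0 in every class.

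The member counts within classes were low on the scale of totals, and the shares of all genes beside them were not matched for UMIs either. In naive-type cells 2 members were higher in old recipient (7.32% of 5984 genes) and 2 lower (4.41%). In Ly6c2-high cells 0 were higher (6.3% of 8924 genes) and 2 lower (5.1%), and in Gzmk cells 0 were higher (7.8% of 5580 genes) and 3 lower (4.14%). In Cx3cr1 cells 84 members could be compared, of which 0 were higher (9.41% of 2243 genes) and 4 lower (3.61%). With TMM scaling the count for Cx3cr1 cells was 12 lower and 0 higher, against 6.02% and 7.04% of all genes. The members' median ratio was -0.03 in naive-type, -0.02 in Ly6c2-high, -0.11 in Gzmk and -0.15 in Cx3cr1 cells, beside all-gene medians between 0.01 and 0.03.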

How the data were processed

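Gene expression of 2 libraries was used, with 1 sample per group; the paired receptor libraries were not used here. The deposited values were raw UMI counts per gene and barcode, made by the authors with Cell Ranger and Seurat on mm10, per the submitters' processing notes, and with software version 3.0.2 per the file headers. How reads of near-identical genes were assigned is not given in the sources used here. Barcodes with fewer than 500 genes or over 10% mitochondrial UMIs were dropped, as were doublets scored against 2 simulated doublets per cell (0.8% per 1000 barcodes: 278 and 550). Counts of 31053 features were summed to 31017 symbols.

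UMIs were summed over the cells of a class and divided by their total (CPM). Since each group is a single library, nothing was tested, and the intervals are exact (Poisson sums, or binomial for shares) and cover counting error only, for molecules that share cells and mice. Genes needed 200 UMIs over both sums, and 1.2-fold marked a difference. The intervals were tried only on sums simulated with counting error alone, so that trial says nothing of spread between cells or mice. Python 3.11.15, scipy 1.17.1 and, for TMM scaling, edgeR 4.0.16 in R 4.3.3 were used. Promoter sequences are from RefSeq (GRCm38.p6) and gene positions from GENCODE M21 (GRCm38).

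The members and gene lists were chosen with earlier results of these data known. Named were the 6 highest and 6 lowest members of each comparison relative to the members' median, the 10 with the most UMIs, a fixed set of paralogs and stalk proteins, and of other lists the 4 genes with the most UMIs. Rpl27a was named for its sequence window. Some genes that these rules and the marker lists take are not reported here; marker sums leave them out, and the ribosomal totals and counts of members keep them. The settings tried were other filters on cells and genes, doublets kept, other denominators and scalings, thinned class calls, single-class cells, median cells, standard proteins only and, added after the data were seen, cells of 5000 to 7000 UMIs.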

Additional observations from a re-analysis of the deposited data

Results flagged for a closer look

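Of the 87 members compared in 3 classes, 2 had ratios over naive-type cells whose counting intervals lay on opposite sides of 0 in the 2 libraries, both in Ly6c2-high cells. The log2 ratio of Rpl27a was 0.021 in old recipient (5119 against 5045 CPM) and -0.030 in young donor cells (4990 against 5095 CPM). That of Rps18 was 0.017 in old recipient (5135 against 5074 CPM) and -0.036 in young donor cells (5223 against 5354 CPM). The difference between the libraries was not tested, and all 4 ratios are far under 1.2-fold.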

How the results depend on the processing

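With 1 library per group no library could be left out. Depth limits the Cx3cr1 classes most, with 372 and 316 cells, and only 45 and 59 without cells of more than 1 class. No paired analysis was possible because each group has 1 library and no result comes from a test. A share ratio was counted as moved when it left its counting interval, which is narrow; of the alternative values 58 moved, 35 did not and 4 changed sign, and of the member counts 8 moved and 60 did not. The causes were not tested. Gzmk and Cx3cr1 ratios over naive-type cells stayed below 0 under every alternative, from -0.96 to -0.54 and -0.86 to -0.40 for Gzmk and from -1.14 to -0.65 and -1.002 to -0.52 for Cx3cr1 cells (old recipient, then young donor, in this order below too).

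In the following, values over naive-type cells are given for Gzmk, Cx3cr1 and Ly6c2-high cells, and values between libraries for the sets named. With UMIs of other nuclear genes as denominator they were -0.96 and -0.86, -1.14 and -1.002, and -0.053 and -0.055, and between libraries -0.066 over all cells, -0.031 in naive-type, -0.029 in Ly6c2-high, -0.13 in Gzmk and -0.17 in Cx3cr1 cells. With cells of more than 1 class left out they were -0.62 and -0.54, -0.67 and -0.65, and 0.00043 and -0.030, and between libraries -0.023 in naive-type, 0.0078 in Ly6c2-high, -0.10 in Gzmk and -0.040 in Cx3cr1 cells. With class rules on cells thinned to 3500 UMIs they were -0.63 and -0.55, -0.70 and -0.62, and -0.036 and -0.036, and between libraries -0.010 in naive-type, -0.010 in Ly6c2-high and -0.10 in Cx3cr1 cells. With no doublets removed they were -0.54 and -0.46, -0.67 and -0.52, and -0.034 and -0.038, and between libraries -0.11 in Gzmk and -0.16 in Cx3cr1 cells.

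The ratio of median shares per cell was -0.69 and -0.61, -0.87 and -0.74, and, for old recipient Ly6c2-high cells, -0.029. Between libraries that ratio was -0.024 over all cells, -0.0031 in naive-type, 0.00013 in Ly6c2-high, -0.080 in Gzmk and -0.13 in Cx3cr1 cells. In cells of 5000 to 7000 UMIs, a setting chosen after seeing the data, the values were -0.54 and -0.40, -0.65 and -0.56, and -0.15 and -0.10, and between libraries -0.0098 over all cells, 0.00062 in naive-type, -0.056 in Ly6c2-high, -0.14 in Gzmk and -0.084 in Cx3cr1 cells. The value over all cells was -0.035 with at least 1000 genes per cell and -0.034 with at most 5% mitochondrial UMIs. With only the 77 standard proteins the young donor Ly6c2-high ratio was -0.030, and 1 member in place of 3 differed between libraries.

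The count of 0 members past 1.2-fold in Ly6c2-high cells became 1 and 2 with a minimum of 20 UMIs, 3 and 2 with at least 1 UMI in each group, 11 and 4 at 5000 to 7000 UMIs and, in young donor, 1 with cells of more than 1 class left out.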

Other observations

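Cells that met none of the 4 class rules numbered 510 in old recipient and 429 in young donor. Their pooled ribosomal share was 41.1% and 39.8%, and 29.6% and 29.8% of them were under 35%. Cells that met both the naive-type and the Gzmk rule were 1 in old recipient and 15 in young donor, and the 15 held 30.7%, near the other Gzmk cells. The SD of the share between cells over a whole library was 9.33 percentage points in old recipient and 7.62 in young donor cells.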
